A study of Mus musculus with 38 samples.

Results

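The major histocompatibility complex (MHC) genes described here are the 44 mouse genes, of 55502 gene identifiers in the count tables, that load and display peptides for T cells. They were taken by name: every symbol that starts with H2- and is not a pseudogene, and 10 further genes of the same pathway, B2m, Tap1, Tap2, Tapbp, Psmb8, Psmb9, Psmb10, Nlrc5, Ciita and Cd74. Of the 44, 24 encode class I heavy chains or their non-classical relatives, 8 serve class I assembly and processing, and 11 serve class II. H2-Ke6 carries the prefix but encodes a metabolic enzyme, so it was kept apart.

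MHC class I is a heavy chain bound to B2m that shows fragments of the cell's own proteins to CD8+ T cells. The immunoproteasome subunits Psmb8, Psmb9 and Psmb10 cut those proteins, the Tap1 and Tap2 transporter carries the fragments into the endoplasmic reticulum, and Tapbp holds the empty heavy chain beside the transporter, while Nlrc5 switches on the transcription of the class I genes. MHC class II pairs an alpha chain (H2-Aa) with a beta chain (H2-Ab1, or H2-Eb1 with its own alpha partner) under the master transactivator Ciita, with Cd74 as the invariant chain that guards the groove and H2-DM (H2-DMa with H2-DMb1 or H2-DMb2) as the peptide exchanger. The annotation lists the alpha partner of H2-Eb1, H2-Ea-ps, as a polymorphic pseudogene, and it was left out. Whether H2-Eb1 had a working partner here was not tested. Class II is best known from dendritic cells, macrophages and B cells, and alveolar type 2 cells of the lung also carry it.

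The study sequenced RNA from organoids grown in Matrigel with L-WRN conditioned medium, each line started from an individual mouse lung adenocarcinoma, 38 libraries of 8 lines in all. Every line carried KrasFSF-G12D, p53frt and Rosa-FSF-CreERT2 on a mixed background (Mixed 129/B6), plus floxed alleles of the transcription factor genes Foxa1 and Foxa2, and each was given ethanol vehicle or 2 uM 4-hydroxytamoxifen (4-OHT), which activates the recombinase, for 72 h. Double-floxed lines held Foxa1flox and Foxa2flox (lines 1027B, 1027D and 1292B, 5 vehicle and 5 4-OHT libraries), Foxa2-floxed lines held Foxa2flox (1267B and 1526C, 4 and 4) and Foxa1-floxed lines held Foxa1flox (1552A, 1552B and 1552C, 6 and 6). In a further set, double-floxed line 1027B was also made to carry shScramble, the control hairpin, or shNKX2-1, aimed at Nkx2-1, with 2 libraries for each hairpin and treatment. No line lacked floxed alleles, so gene loss and the recombinase or 4-OHT itself cannot be told apart. The sources used here do not give the time from 4-OHT to RNA collection. The labels do not say whether repeat libraries of a line were separate cultures, so p-values measure the spread between these libraries.

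Values below are CPM, gene counts relative to the normalised total of their library, scaled within each of the 3 count tables. A change is the fitted log2 ratio of 4-OHT to vehicle with its standard error (SE), and a gene is called when edgeR's quasi-likelihood test gives an adjusted p under 0.05 over all genes tested. Library totals were 18.3 M to 32 M counts for the double-floxed lines, 18.5 M to 33.2 M for the single-floxed lines and 13.6 M to 16.3 M for the hairpin libraries. The targeted genes fell with 4-OHT in the floxed lines without hairpins: Foxa2 was at 60.5 to 188 CPM in double-floxed vehicle libraries and 2.59 to 6.17 CPM after 4-OHT, and in Foxa2-floxed lines at 73.5 to 122 and 1.93 to 4.14 CPM, while Foxa1 in Foxa1-floxed lines was at 41.8 to 80.4 and 13.9 to 17.4 CPM. In the hairpin libraries Foxa2 fell (log2 change -5.09 with shScramble, adjusted p = 0.00227, and -6.04 with shNKX2-1, adjusted p = 0.00175), whereas Foxa1 was at 22.1 to 34.1 CPM in vehicle and 18.5 to 21.9 CPM after 4-OHT and was not called (-0.49, adjusted p = 0.469, and -0.56, adjusted p = 0.236), against -1.79 in the double-floxed table (adjusted p = 0.0284). Nkx2-1 was at 280 and 350 CPM in shNKX2-1 vehicle libraries against 424 and 428 CPM in shScramble ones. The values did not overlap, but the difference was not called (edgeR). Any knockdown in vehicle was thus partial. Mitochondrial genes took 1.09% to 4.3% of counts except in library 2 of shNKX2-1 with 4-OHT, at 11.7%. The summed CPM of 16 leukocyte markers ran from 6.42 to 55.2 against 5256 to 18130 for 6 epithelial markers (Epcam, keratins, Cdh1 and Nkx2-1), the labelled tumour epithelium. Tyrobp, Adgre1, C1qa and C1qb, which mark macrophages, had at most 1 count in any library. Other markers of the list were present: Csf1r, another macrophage marker, reached 26.5 CPM, and 6 of the 16 had enough counts to be tested in double-floxed lines.

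Many of the 44 genes were silent. The heavy chain genes H2-M10.1, H2-M10.2, H2-M10.3, H2-M10.5, H2-M11 and H2-M9 had 0 counts in all 38 libraries, and H2-Ob, the beta chain of the H2-DM inhibitor, had 1 count in all. After the filter on low counts, 11 of 24 heavy chain genes, 8 of 8 processing genes and 7 of 11 class II genes were tested in the double-floxed table. The single-floxed table left 14, 8 and 4, and H2-Aa, H2-Ab1, H2-Eb1 and H2-DMb2 fell below its filter. The hairpin table left 9, 7 and 8, without Nlrc5. A count of 0 in 1 library allows up to 0.0863 to 0.169 CPM in the double-floxed table, 0.0917 to 0.155 in the single-floxed table and 0.177 to 0.245 in the hairpin table, for counting error only. Per kilobase of exon, B2m (113 ± 76.3 CPM per kb, SD, n = 5), H2-D1 (105 ± 65.4), H2-K1 (89.5 ± 60.3) and Cd74 (88.6 ± 152) stood highest in double-floxed vehicle libraries, and their order was not separable from the spread. Heavy chain genes of the K, D, Q and T groups are close copies of one another, and the sources used here do not give how reads that match several of them were counted, so levels of single heavy chains are uncertain. Psmb9 and Tap1 overlap head to head by 212 bases, B2m overlaps Patl2 by 5398 and H2-DMa overlaps Brd2 by 3094. The library kit keeps strand, but the sources do not say whether the counting used it, so reads in such overlaps are uncertain too.

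The promoters of H2-Aa and H2-Eb1 (RefSeq, build GRCm38.p6, 250 bases before to 50 after the start) are shown because these chains carry the class II changes below. H2-Aa lies on the minus strand at chr17:34287774-34288073 and H2-Eb1 on the plus strand at chr17:34305617-34305916. Capitals mark matches on either strand to CCAAT, the nuclear factor Y box that forms part of the class II promoter module, and to TGACGTCA, a CREB-type site.
H2-Aa: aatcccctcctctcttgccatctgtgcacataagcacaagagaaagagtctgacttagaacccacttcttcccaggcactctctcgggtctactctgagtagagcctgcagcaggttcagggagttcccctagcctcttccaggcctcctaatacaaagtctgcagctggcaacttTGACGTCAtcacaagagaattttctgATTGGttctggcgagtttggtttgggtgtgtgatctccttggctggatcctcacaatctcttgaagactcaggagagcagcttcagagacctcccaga
H2-Eb1: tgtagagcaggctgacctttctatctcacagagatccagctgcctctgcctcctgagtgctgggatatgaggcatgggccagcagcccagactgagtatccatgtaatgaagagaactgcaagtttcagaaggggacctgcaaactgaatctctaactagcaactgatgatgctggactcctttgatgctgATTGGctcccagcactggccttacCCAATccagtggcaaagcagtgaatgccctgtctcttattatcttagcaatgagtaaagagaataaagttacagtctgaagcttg
H2-Aa held CCAAT on the minus strand at -48 and TGACGTCA at -74 from the start. H2-Eb1 held CCAAT at -59 on the minus strand and at -35 on the plus strand. All 8 class II genes with a promoter entry held CCAAT, as did 19 of 22 heavy chain genes and 4 of 6 processing genes, against 37.4% of 32851 promoters of the same length. TGACGTCA was in 1 of the 8 and in 1.79% of all promoters. The forkhead motif TGTTTAC, searched on both strands because FOXA1 and FOXA2 are forkhead factors, was in 0 of 8 class II and 0 of 6 processing promoters and in 2 of 22 heavy chain promoters (H2-M1 and H2-M9), against 3.65% of all. A match is a description of these letters only. H2-Ab1, Ciita, Cd74, Nlrc5, Tap2, H2-Q1 and H2-T24 had no entry in the promoter table.

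In double-floxed lines the class II chains were near zero in most vehicle libraries and reached several CPM in 3 of 5 4-OHT libraries. H2-Aa, the alpha chain, was at 19.5, 0, 0, 0.212 and 0.226 CPM in vehicle libraries 1 to 5 and at 201, 0, 5.13, 6.44 and 0.547 CPM in 4-OHT libraries 1 to 5. Libraries 1 and 4 came from line 1027B, 2 and 5 from 1027D and 3 from 1292B. The treated and vehicle groups overlapped, because vehicle library 1 of line 1027B stood above 4 of the 5 treated ones. H2-Ab1, the beta chain, was at 15.6, 0, 0, 0.142 and 0.0452 CPM in vehicle and at 196, 0.198, 6.31, 9.34 and 0.46 CPM after 4-OHT. H2-Eb1, the second beta chain, was at 20.1, 0, 0, 0.177 and 0.0904 CPM in vehicle and at 186, 0, 5.24, 8.41 and 0.748 CPM after 4-OHT. The 3 chains thus had the same order of lines, 1027B highest, 1292B next and 1027D lowest after 4-OHT.

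Cd74, the invariant chain, was at 604, 2.45, 27.8, 76.7 and 32.8 CPM in double-floxed vehicle libraries and at 1643, 4.12, 249, 407 and 33.6 CPM after 4-OHT. Ciita, the class II transactivator, was at 23.7, 0.163, 0.848, 3.47 and 1.27 CPM in vehicle and at 110, 0.298, 5.07, 12.2 and 1.3 CPM after 4-OHT. Both were higher after 4-OHT in lines 1027B and 1292B and nearly level in library 5 of line 1027D. H2-DMa, of the peptide exchanger, was at 12.8, 2.07, 2.33, 2.62 and 2.03 CPM in vehicle and at 60, 3.72, 5.41, 9.79 and 5.07 CPM after 4-OHT, higher in each of the 3 lines. Its partner H2-DMb1 was higher in 2 of the 3 lines.

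No class II gene and no class I or processing gene was called in the double-floxed lines, against 3.9% of 15198 genes tested (1.99% called higher). H2-Ab1 (log2 change 4.22, SE 1.44, adjusted p = 0.138), H2-Eb1 (3.74, SE 1.53, adjusted p = 0.21) and H2-Aa (3.42, SE 1.59, adjusted p = 0.271) had the largest fitted changes. At an unadjusted p under 0.05, 3 of 7 class II and 3 of 19 class I and processing genes passed, against 20.3% of all genes. The median fitted change was 1.57 over the 7 class II genes and 0.02 over all genes tested. Within lines, 6 of 7 tested class II genes were higher after 4-OHT in each of the 3 lines, against 25.2% of all genes. Any positive difference in mean CPM counted as higher. In line 1027D Ciita went from 0.714 to 0.796 CPM, Cd74 from 17.6 to 18.9 CPM and H2-DMa from 2.05 to 4.39 CPM. H2-Aa, H2-Ab1 and H2-Eb1 reached at most 0.374 CPM there. When the number that opens each library name (17699 or 17992) was blocked together with the line, 11.7% of all genes were called, and 5 of 7 class II genes were called higher, H2-Ab1 (4.77, adjusted p = 0.00674), H2-DMa (1.53, adjusted p = 0.0134), H2-Eb1 (4.31, adjusted p = 0.0157), H2-Aa (3.89, adjusted p = 0.0264) and Ciita (1.65, adjusted p = 0.0397). The class I and processing genes called in that fit were 2 of 19, H2-D1 (0.86, adjusted p = 0.0435) and H2-T24 (2.26, adjusted p = 0.0475). The labels do not say what the number stands for. Without both libraries 1, in which class II stood apart, H2-Ab1 was called (6.02, adjusted p = 0.026), the 1 class II gene to pass, and no class I gene was. That fit called 3.66% of all genes. Without vehicle library 1 alone, 4-OHT library 1 alone, or the whole of line 1027B, no class II gene was called. Those fits called 2.09%, 3.42% and 0.755% of all genes.

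**Figure D1:**
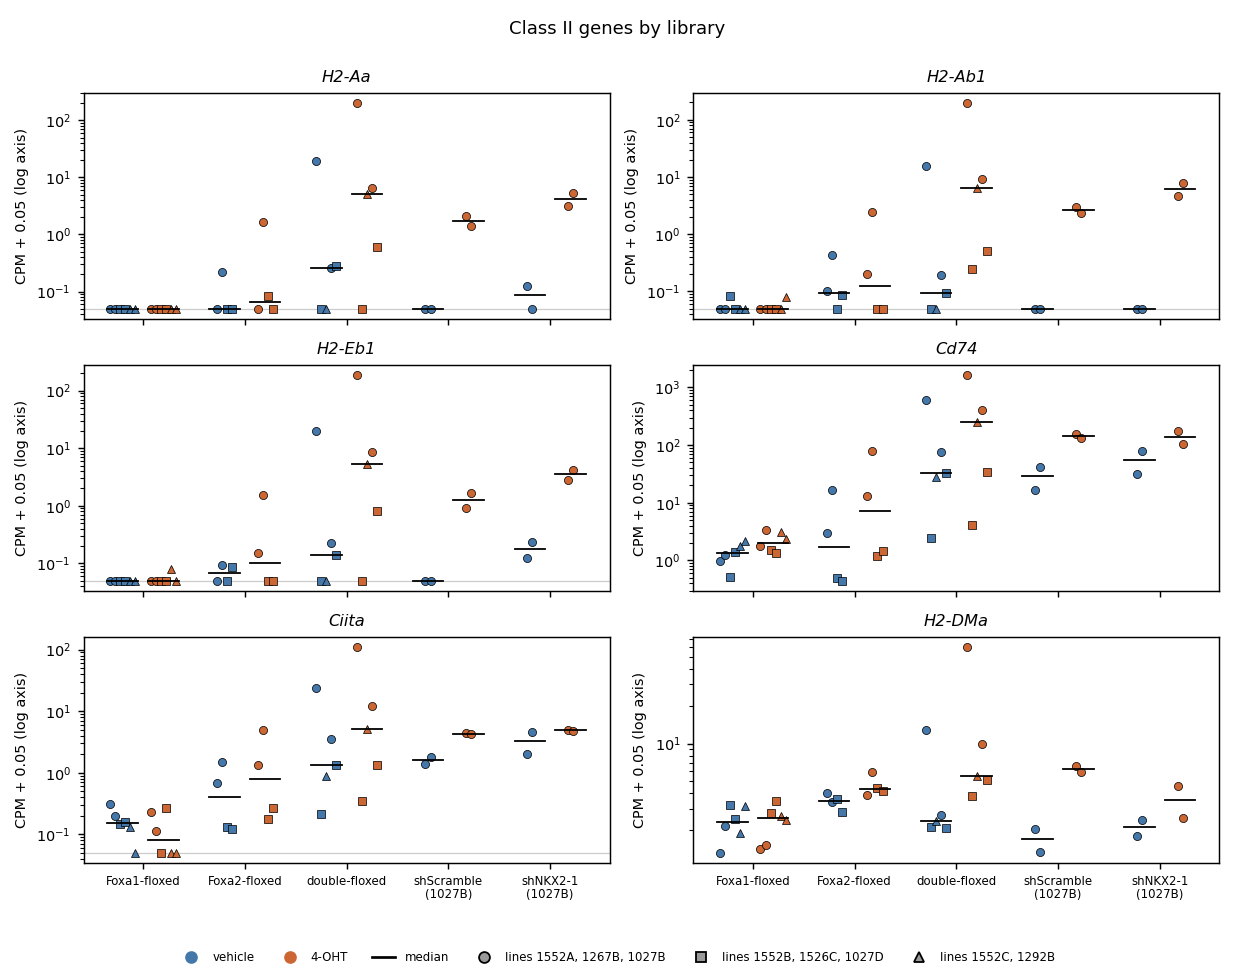
6 class II genes by library: each point is 1 library, the vertical axis is CPM plus 0.05 on a log scale, blue is vehicle, orange 4-OHT, the bar the group median, shapes the lines, and the grey line marks a count of 0. H2-Aa in the double-floxed 4-OHT libraries spans 0 to 201 CPM, and both shScramble vehicle libraries lie on the zero line.

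Line 1027B was sampled in 3 sets, which shows how far class II varied within it. Its vehicle libraries held 730 and 90.3 CPM of summed class II RNA in the double-floxed table (libraries 1 and 4) and 26.4 to 95 CPM in the hairpin table, which was scaled separately. After 4-OHT the sums were 2496 and 471 CPM and 131 to 206 CPM. Line 1027D stayed low, at 12.1 and 43.7 CPM in vehicle and 13.7 and 50.9 CPM after 4-OHT. Line 1292B went from 32.1 to 282 CPM. In bulk RNA, more cells that hold class II and more class II RNA per cell cannot be told apart.

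**Figure D2:**
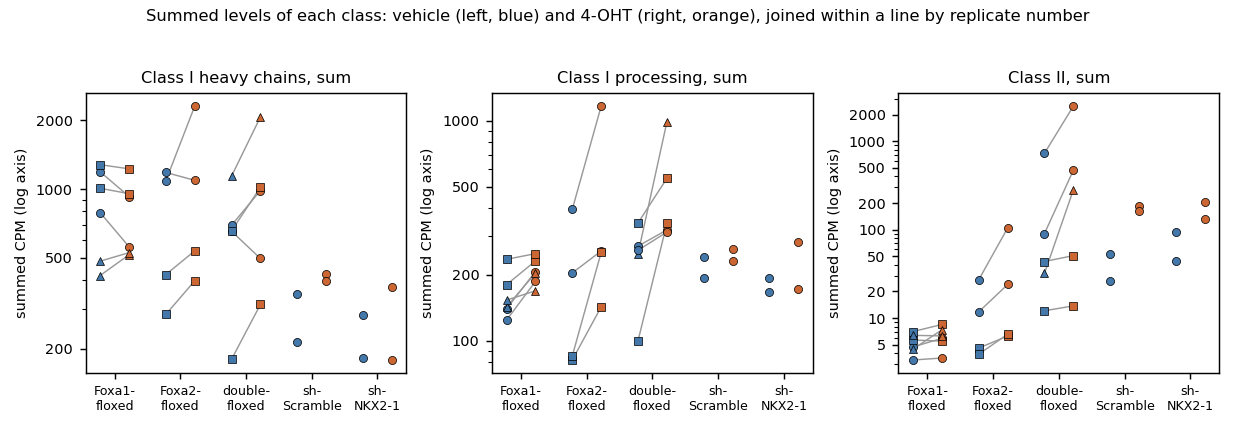
Summed CPM (log axis) of the heavy chain, processing and class II genes per library, vehicle left in blue and 4-OHT right in orange, with grey lines joining libraries of 1 line and replicate number and shapes standing for the lines of a genotype. Class II sums run from 12.1 to 730 CPM in double-floxed vehicle libraries and stay at or below 8.48 CPM in all 12 Foxa1-floxed libraries.

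In the hairpin set the class II chains H2-Ab1, H2-Aa and H2-Eb1 rose with 4-OHT in both hairpin backgrounds, from 0 counts in shScramble vehicle and from 0, 1 and 4 counts in shNKX2-1 vehicle. H2-Ab1 was at 0 and 0 CPM in shScramble vehicle and at 2.94 and 2.26 CPM after 4-OHT, 83 counts against 0 (adjusted p = 0.0102, edgeR). With 3 counts over the vehicle group taken as the floor, it was 27.6-fold above that floor, with a lower 95% exact counting limit of 22. H2-Aa was at 0 and 0 CPM and then at 2.02 and 1.36 CPM, 18-fold above that floor with a lower limit of 14.1 (adjusted p = 0.0157). H2-Eb1 was at 0 and 0 CPM and then at 0.857 and 1.61 CPM, 13-fold above the floor with a lower limit of 10.1 (adjusted p = 0.0183). These 3 were the class II genes called of 8 tested, all higher, where 4.33% of 14465 genes were called (1.67% higher). In both backgrounds they passed the filter on low counts only through 4-OHT libraries, so a lower direction was not open to them. The adjusted p-values of H2-Ab1, H2-Aa and H2-Eb1 were above 0.05 when any single shScramble library was left out, with highest values of 0.0637, 0.098 and 0.118, although no fitted direction changed. Over all alternatives run, they ranged from 1.3e-11, 2.46e-08 and 1.49e-06 up to those values. The lowest values came from the fit without the filter on low counts, and the next lowest were 2.82e-05, 0.000257 and 0.00102, with DESeq2.

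With shNKX2-1, H2-Ab1 was at 0 and 0 CPM in vehicle and at 4.53 and 7.69 CPM after 4-OHT (adjusted p = 0.00556). It was 58.9-fold above the floor of 3 counts, with a lower 95% exact counting limit of 47.4. H2-Aa was at 0.0732 and 0 CPM, which is 1 count, and then at 3.11 and 5.32 CPM, a ratio of 122 with a 95% exact counting interval of 21.4 to 4860 (adjusted p = 0.00837). H2-Eb1 was at 0.0732 and 0.188 CPM and then at 2.78 and 4.17 CPM, a log2 change of 4.61 (SE 0.74, adjusted p = 0.0143). These too were the 3 class II genes called of 8, where 6.35% of genes were called (2.72% higher). H2-Ab1 stayed called without any 1 hairpin library, while H2-Eb1 no longer passed without vehicle library 1 or 2 (adjusted p = 0.128 and 0.0956) and H2-Aa without vehicle library 2 (adjusted p = 0.07). Over all alternatives the adjusted p ran from 5.12e-07 to 0.128 for H2-Eb1 and from 7.24e-11 to 0.07 for H2-Aa. With 1 library left out, the log2 change ran from 4.13 to 5.4 for H2-Eb1 and from 5.68 to 8.99 for H2-Aa, which had 1 vehicle count. For all 3 chains 4-OHT library 2 was the higher treated library, and it is the one with 11.7% mitochondrial counts. Its part in these changes was not tested.

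Cd74 was not called in either background. It was at 16.9 and 41.7 CPM in shScramble vehicle and 154 and 130 CPM after 4-OHT (log2 change 2.28, SE 0.54, adjusted p = 0.0577), and with shNKX2-1 at 31.8 and 78.3 and then 173 and 103 CPM (1.32, SE 0.52, adjusted p = 0.172). Ciita was at 1.36 and 1.76 CPM in shScramble vehicle and 4.41 and 4.13 CPM after 4-OHT (1.45, SE 0.47, adjusted p = 0.166), and with shNKX2-1 at 1.98 and 4.57 and then 4.87 and 4.75 CPM (0.55, SE 0.45, adjusted p = 0.457). The treated libraries lay above the vehicle ones for both genes in both backgrounds, by a narrow gap for Ciita with shNKX2-1. All 8 class II genes were so separated with shScramble and 6 of 8 with shNKX2-1, where 32.6% and 24.9% of all genes were separated in that direction. With 2 libraries against 2 such separation is common, and the shares of all genes are the comparison to read. H2-Ab1, H2-Aa and H2-Eb1 passed the filter only through 4-OHT libraries, which fixed their direction. They therefore lend no support to these counts or to the class II medians that follow. The median fitted change was 2.1 over the 8 class II genes with shScramble and 1.03 with shNKX2-1, against 0.02 over all genes in both. Setting genes without vehicle counts at their ratios to the floor left both class II medians as they were.

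In single-floxed lines the class II chains stayed near the detection limit. In Foxa1-floxed lines H2-Aa had 0 counts in all 12 libraries. Foxa2-floxed lines held H2-Aa at 0, 0.168, 0 and 0 CPM in vehicle libraries 1 to 4 and at 0, 1.59, 0.0322 and 0 CPM after 4-OHT, with libraries 1 and 2 from line 1267B and 3 and 4 from 1526C. H2-Eb1 had 0, 1, 0 and 1 counts in Foxa2-floxed vehicle libraries and 2, 48, 0 and 0 counts after 4-OHT. The values above 1 CPM came from 4-OHT library 2 of line 1267B.

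Cd74 was at 2.89, 16.4, 0.451 and 0.395 CPM in Foxa2-floxed vehicle libraries and at 13.1, 78.4, 1.13 and 1.42 CPM after 4-OHT. It was higher in both lines, with overlap between lines. Its log2 change of 1.99 (SE 0.55) missed the threshold (adjusted p = 0.0593). The fit that also blocked the library-name number called Cd74 (1.98, adjusted p = 0.00129), as did the fit without both libraries 2 (1.83, adjusted p = 0.0151). On counts summed per line, with 1 vehicle and 1 4-OHT sum for each of the 2 lines, no class II gene was called, where 0.397% of all genes were. Ciita was at 0.62, 1.43, 0.082 and 0.0718 CPM in vehicle and at 1.27, 4.95, 0.129 and 0.219 CPM after 4-OHT (1.47, SE 0.62, adjusted p = 0.265). No class II gene of 4 tested was called in Foxa2-floxed lines, where 3.43% of 16887 genes were (1.89% higher). The 4 tested, Cd74, Ciita, H2-DMa and H2-DMb1, were higher in both lines, against 29.6% of all genes.

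Foxa1-floxed lines had Cd74 at 0.463, 1.28 and 2.08 CPM (lowest, median, highest of 6) in vehicle and 1.31, 1.99 and 3.31 CPM after 4-OHT (log2 change 0.77, SE 0.44, adjusted p = 0.521). Ciita was at 0, 0.104 and 0.262 CPM and then 0, 0.0306 and 0.217 CPM (-0.63, SE 0.71, adjusted p = 0.775). The ranges overlapped for both. No class I or class II gene was called there, where 2 of 16887 genes were (0.0118%), 1 of them Foxa1, which this treatment deletes. The edgeR count at an unadjusted p under 0.05 was 1 of 22 class I and processing genes (H2-M5, lower) and 0 of 4 class II genes, against 11.4% of all genes.

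The promoters of B2m and Psmb8 are shown because both are class I assembly genes called below, in different sets of lines. Nlrc5, called beside B2m, had no entry. B2m lies on the plus strand at chr2:122147437-122147736 and Psmb8 on the plus strand at chr17:34197945-34198244 (GRCm38.p6). Capitals mark CCAAT, the interferon-response pattern of GAAA, any 2 bases and GAAA, and the STAT-type motif TTCNNNGAA on either strand.
B2m: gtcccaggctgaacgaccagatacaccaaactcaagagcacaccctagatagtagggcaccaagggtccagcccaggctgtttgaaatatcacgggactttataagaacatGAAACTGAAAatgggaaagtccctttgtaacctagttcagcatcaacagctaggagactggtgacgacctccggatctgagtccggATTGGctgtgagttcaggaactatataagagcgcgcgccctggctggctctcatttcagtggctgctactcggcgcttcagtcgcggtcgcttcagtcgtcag
Psmb8: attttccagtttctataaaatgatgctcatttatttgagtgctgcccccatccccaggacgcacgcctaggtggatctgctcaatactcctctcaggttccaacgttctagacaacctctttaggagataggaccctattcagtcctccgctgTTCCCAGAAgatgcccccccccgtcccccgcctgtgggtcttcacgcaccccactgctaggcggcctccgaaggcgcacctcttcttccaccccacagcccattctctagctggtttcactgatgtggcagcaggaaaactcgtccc
B2m held the interferon-response pattern at -139 and CCAAT on the minus strand at -53. Psmb8 held TTCNNNGAA at -97 and no CCAAT. That pattern was in 1 of 6 processing, 2 of 22 heavy chain and 0 of 8 class II promoters, against 3.44% of all, and TTCNNNGAA in 1 of 6, 2 of 22 and 1 of 8, against 8.3% of all.

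Among class I assembly genes, B2m and Nlrc5 rose in Foxa2-floxed lines. B2m, the light chain of every class I molecule, was at 85.7, 163, 26.5 and 26.5 CPM in vehicle libraries 1 to 4 and at 134, 650, 56.4 and 132 CPM after 4-OHT (log2 change 1.74, SE 0.41, adjusted p = 0.0265). Nlrc5, the class I transactivator, was at 0.155, 0.547, 0 and 0.108 CPM and then at 0.306, 19.2, 0.675 and 2.81 CPM (4.77, SE 1.05, adjusted p = 0.0183). Both were higher after 4-OHT in each of the 2 lines, as were 29.6% of all genes. The groups overlapped across lines, and 4-OHT library 2 of line 1267B stood far above the rest. These were the 2 genes called of 22 class I and processing genes tested, against 3.43% of all genes.

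Both calls rested on few libraries. Without 4-OHT library 2 the change was 1.19 for B2m (adjusted p = 0.158) and 2.68 for Nlrc5 (adjusted p = 0.24), and both calls also ended without 4-OHT library 4 or without vehicle library 1, 3 or 4. On counts summed per line B2m was not called (1.81, adjusted p = 0.102) and Nlrc5 was (4.94, adjusted p = 0.048). Over 18 alternatives the log2 change of B2m stayed between 1.19 and 2.06 (adjusted p 4.71e-25 to 1) and that of Nlrc5 between 2.68 and 5.42 (adjusted p 5.19e-23 to 0.471). Both lowest adjusted p-values came from the fit without the filter on low counts, where the SE fell to 0.16 and 0.456. The next lowest were 0.000797 and 0.000473, with DESeq2. Without both libraries 2, B2m was still called (1.43, adjusted p = 0.0463) and Nlrc5 was not (3.70, adjusted p = 0.0715). With the library-name number in the block 7 class I and processing genes were called, Tapbp, Tap1, H2-T24, B2m, H2-D1, Nlrc5 and Psmb9, where 5.22% of 17508 genes were. Irf7, an interferon-response gene outside the MHC, was also highest in 4-OHT library 2, at 327 CPM, against 7.84 to 55.6 CPM in the other 3 treated libraries, and its part in the class I values was not tested.

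Other class I assembly genes in Foxa2-floxed lines had positive fitted changes that did not pass. Tap1, a subunit of the peptide transporter, was at 4.91, 20.4, 0.533 and 0.574 CPM in vehicle and at 6.22, 70.3, 1.41 and 5.73 CPM after 4-OHT (2.06, SE 0.66, adjusted p = 0.11). Psmb9 was at 0.516, 3.53, 0.041 and 0.143 CPM and then at 1.48, 12.8, 0.129 and 0.329 CPM (1.66, SE 0.67, adjusted p = 0.245). Each was higher in both lines, again with library 2 on top. Tapbp had a log2 change of 0.78 (adjusted p = 0.164), Psmb8 of 1.81 (adjusted p = 0.295), Tap2 of 0.82 (adjusted p = 0.44) and Psmb10 of 0.45 (adjusted p = 0.573). The median over the 8 processing genes was 1.7, against -0.01 over all genes, and 8 of 8 were higher in both lines, against 29.6% of all genes.

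No heavy chain was called in Foxa2-floxed lines. H2-K1 was at 559, 404, 110 and 178 CPM in Foxa2-floxed vehicle and at 454, 841, 114 and 163 CPM after 4-OHT (0.19, SE 0.25, adjusted p = 0.848). H2-D1 was at 427, 459, 134 and 172 CPM and then at 461, 982, 224 and 276 CPM (0.71, SE 0.20, adjusted p = 0.0621). H2-D1 was higher in both lines, as were 29.6% of all genes, and H2-K1 in 1 of the 2. H2-T24, a non-classical heavy chain, was at 0.723, 5.93, 0.041 and 0.143 CPM and then at 1.02, 37.6, 0.514 and 4.56 CPM (3.22, SE 0.92, adjusted p = 0.0667). H2-Q6, another non-classical chain, had a fitted change of 3.38 (adjusted p = 0.188) that came from 17.9 CPM in 4-OHT library 2, with at most 0.182 CPM in the other 3. H2-Q10 had the lowest fitted change of the heavy chains, -2.01 (SE 0.83, adjusted p = 0.25). It was at 27.3, 3.87, 0.902 and 7.79 CPM in vehicle and 9.94, 2.3, 0.418 and 0.84 CPM after 4-OHT. It was lower in both lines, as were 29.2% of all genes. Over the 14 heavy chains tested the median was 0.67, with 9 higher in both lines.

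**Figure D3:**
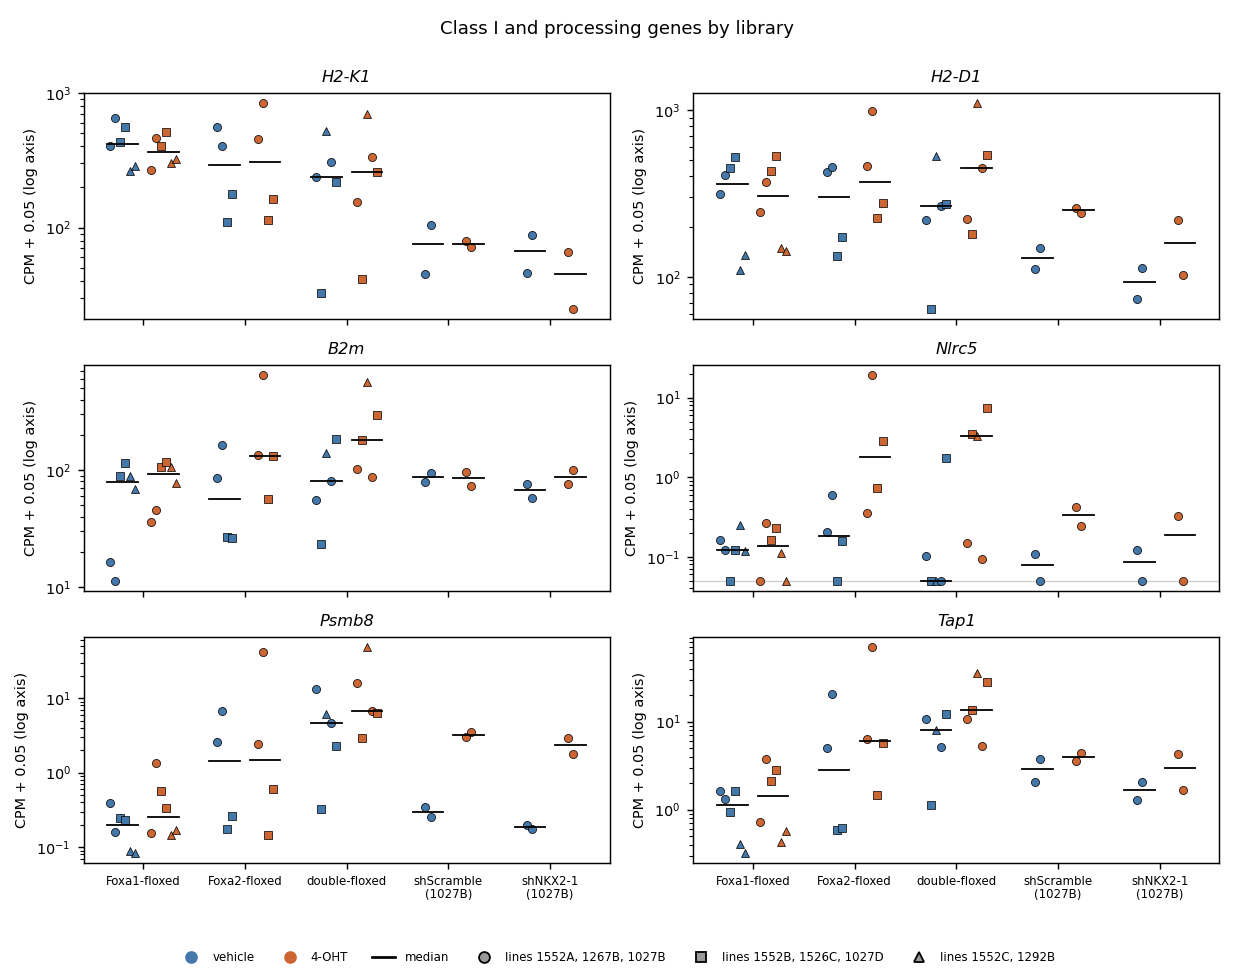
6 class I and processing genes by library, drawn as in the class II plot: each point is 1 library, the vertical axis is CPM plus 0.05 on a log scale, blue vehicle, orange 4-OHT, bars group medians, shapes lines. B2m and Nlrc5 in the Foxa2-floxed 4-OHT group reach 650 and 19.2 CPM in 1 library of line 1267B.

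In double-floxed lines the same class I genes had positive fitted changes but none was called. B2m was at 55.5, 23.4, 142, 81.2 and 186 CPM in vehicle and at 103, 182, 571, 87.9 and 297 CPM after 4-OHT (1.07, SE 0.50, adjusted p = 0.277). It was higher in each of the 3 lines, as were 25.2% of all genes. Nlrc5 was at 0.0527, 0, 0, 0 and 1.67 CPM and then at 0.0979, 3.42, 3.27, 0.0447 and 7.42 CPM (3.2, SE 1.25, adjusted p = 0.19). Nlrc5 stayed under 0.1 CPM in line 1027B, the line with the most class II, and exceeded 3 CPM in treated libraries of 1027D and 1292B. Psmb8 was at 13.3, 0.272, 6.09, 4.6 and 2.21 CPM and then at 15.9, 2.83, 48.4, 6.62 and 6.22 CPM (1.45, SE 0.68, adjusted p = 0.272).

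Tap1 divided the double-floxed lines in the same manner. It was at 10.6, 1.09, 7.9, 5.13 and 12 CPM in vehicle and at 10.7, 13.4, 35.4, 5.23 and 28.1 CPM after 4-OHT (1.11, SE 0.67, adjusted p = 0.401), level in line 1027B and higher in the other two lines. Tap2 was lower after 4-OHT in line 1027B and higher in the other two, Tapbp and Psmb9 were higher in all 3, and Psmb10 was lower in 2 of 3 (-0.26, SE 0.20, adjusted p = 0.544). H2-K1 was at 236, 32.8, 524, 306 and 216 CPM and then at 155, 41.7, 692, 333 and 256 CPM (0.12, SE 0.58, adjusted p = 0.944). H2-D1 was at 219, 64.4, 533, 267 and 272 CPM and then at 221, 181, 1104, 451 and 535 CPM, higher in each of the 3 lines (0.83, SE 0.44, adjusted p = 0.339). The median was 1.09 over the 8 processing genes and 0.44 over the 11 heavy chains tested. Of these, 6 of 8 and 3 of 11 were higher in each of the 3 lines, against 25.2% of all genes. Any positive difference in mean CPM counted as higher. The 6 thus include genes nearly level in line 1027B: Tap1 (7.86 and 7.95 CPM), Psmb9 (2.6 and 2.74 CPM) and Nlrc5 (0.026 and 0.071 CPM). No gene of the 26 class I and class II genes tested had all treated libraries above all vehicle ones, against 1.63% of all genes.

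In Foxa1-floxed lines B2m was at 11.3, 79 and 116 CPM (lowest, median, highest of 6) in vehicle and 36.3, 91.8 and 118 CPM after 4-OHT (0.62, SE 0.34, adjusted p = 0.501). H2-K1 was at 261, 418 and 654 CPM and then at 270, 366 and 509 CPM (-0.15, SE 0.20, adjusted p = 0.821). H2-D1 was at 110, 361 and 523 CPM and then at 142, 307 and 533 CPM, with a fitted change of 0.00 (SE 0.16). Vehicle and treated ranges lay over each other for all 3. The largest fitted changes were 1.87 for H2-T3 (adjusted p = 0.484), 1.39 for Psmb8 (adjusted p = 0.522) and -1.10 for H2-M5 (adjusted p = 0.423), each at or below 1.79 CPM in every library. The median was 0.37 over the 8 processing genes, -0.12 over the 14 heavy chains and 0.01 over all genes tested. Of the processing genes, 4 of 8 were higher in each of the 3 lines, against 16.9% of all genes.

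In the hairpin set Psmb8, the inducible subunit that replaces a constitutive proteasome subunit, was the class I assembly gene that rose with 4-OHT. It was at 0.295 and 0.203 CPM in shScramble vehicle and at 2.94 and 3.42 CPM after 4-OHT (3.62, SE 0.55, adjusted p = 0.00992). With shNKX2-1 it was at 0.146 and 0.125 CPM and then at 2.91 and 1.72 CPM (4.02, SE 0.61, adjusted p = 0.0088). All 4 treated libraries stood above all 4 vehicle ones. The vehicle values were a few counts, since 3 counts stand for 0.177 to 0.22 CPM in those libraries. Like the class II chains, Psmb8 passed the filter on low counts only through treated libraries. The shScramble call ended without any 1 of its 4 libraries (adjusted p 0.0666 to 0.115). The shNKX2-1 call ended without either of its vehicle libraries (0.0829 and 0.102). Over all alternatives the adjusted p ran from 1.27e-05 to 0.115 and from 8.7e-06 to 0.102. Both lowest values came from the fit without the filter on low counts. Psmb8 was the 1 gene called of 16 class I and processing genes in each background, where 4.33% of all genes were called with shScramble and 6.35% with shNKX2-1. The separate double-floxed libraries of the same line held Psmb8 at 13.3 and 4.6 CPM in vehicle and 15.9 and 6.62 CPM after 4-OHT.

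B2m was nearly level in the hairpin set, at 78.6 and 95.2 CPM in shScramble vehicle and 97 and 73.8 CPM after 4-OHT (-0.03, SE 0.26, adjusted p = 0.985). With shNKX2-1 it was at 76.7 and 58.2 and then at 75.7 and 99.7 CPM (0.38, SE 0.26, adjusted p = 0.384). H2-K1 was at 45 and 105 and then at 79.8 and 72.1 CPM with shScramble (0.02, SE 0.53, adjusted p = 0.994). H2-D1 was at 111 and 148 CPM in shScramble vehicle and at 259 and 243 CPM after 4-OHT (0.95, SE 0.37, adjusted p = 0.269). H2-D1 was separated between treatments with shScramble and overlapped with shNKX2-1. H2-M5 went down to 2 counts from 23 with shScramble, a ratio of 0.0868 (95% exact interval 0.00992 to 0.351, adjusted p = 0.156), and to 1 count from 25 with shNKX2-1, a ratio of 0.0439 (0.00107 to 0.268, adjusted p = 0.0776). Of 16 class I and processing genes, 7 had higher and 2 lower treated libraries without overlap with shScramble, and 4 and 1 with shNKX2-1. These counts are set against 32.6% and 28.6% of all genes with shScramble and 24.9% and 26.2% with shNKX2-1.

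**Figure D4:**
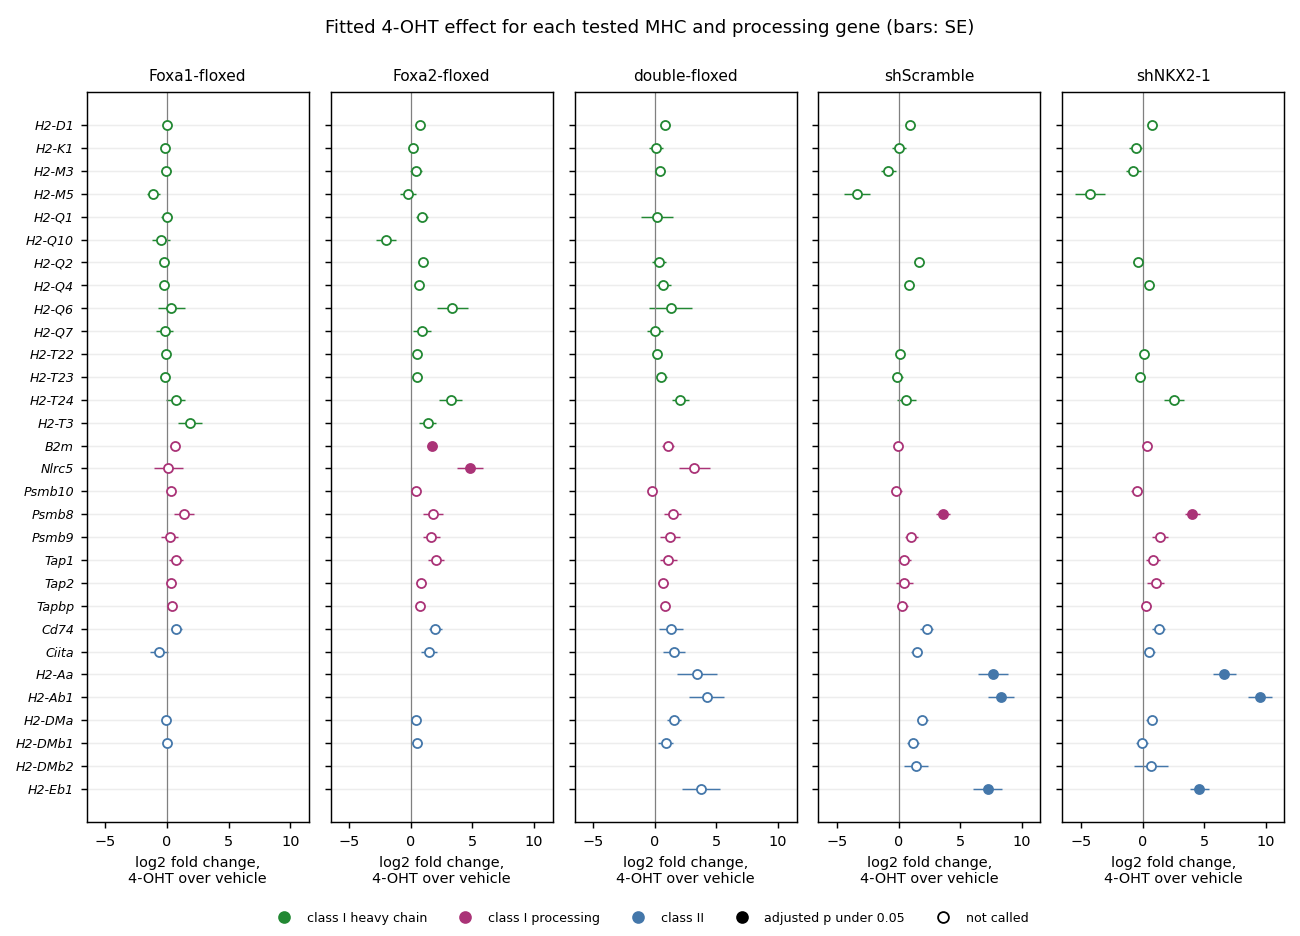
Fitted log2 ratio of 4-OHT to vehicle with its SE for each MHC and processing gene tested, by set of lines, coloured by class and filled where called. The class II chains H2-Aa, H2-Ab1 and H2-Eb1 and the processing gene Psmb8 are filled in both hairpin backgrounds, and where vehicle had no counts the fitted value depends on the prior count and is no bound.

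The hairpin itself moved no MHC gene past the threshold. In vehicle, shNKX2-1 against shScramble, 0 of 16 class I and processing genes and 0 of 8 class II genes were called, where 0.235% of all genes were. After 4-OHT it was again 0 of 16 and 0 of 8, where 1.58% were. Tap2 was at 5.9 and 13.2 CPM in shScramble vehicle and 2.78 and 3.38 CPM in shNKX2-1 vehicle (-1.62, SE 0.69, adjusted p = 0.626). H2-Aa after 4-OHT was at 2.02 and 1.36 against 3.11 and 5.32 CPM (1.31, SE 0.57, adjusted p = 0.371), and H2-Eb1 at 0.857 and 1.61 against 2.78 and 4.17 CPM (1.49, SE 0.57, adjusted p = 0.308), higher with shNKX2-1 without overlap. H2-DMb2, a beta chain of the peptide exchanger, was at 1.22 and 1.16 against 0.406 and 0 CPM (-2.42, SE 1.06, adjusted p = 0.36). In vehicle the classes held 1 class I gene higher and 5 lower without overlap and 3 class II genes higher and 1 lower, where 23.9% and 20.1% of all genes were so placed. After 4-OHT they held 1 and 8 class I genes and 4 and 3 class II genes, where 22% and 21.4% were, and the library with 11.7% mitochondrial counts is 1 of the 2 behind these values.

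The difference in the 4-OHT effect between hairpins was called for 0 of 24 MHC genes and 0 of 14465 genes by edgeR, and for 782 genes at an unadjusted p under 0.05. Among MHC genes H2-Q2 had the lowest unadjusted p, with a difference of -2.02 (SE 0.57, adjusted p = 0.649). Between genotypes, tested on counts summed per line, no MHC gene was called. Of 19085 genes 0.194% were called for double-floxed minus Foxa2-floxed, 1.54% for double-floxed minus Foxa1-floxed and 0 for Foxa2-floxed minus Foxa1-floxed (733 at an unadjusted p under 0.05). In double-floxed minus Foxa1-floxed, H2-DMa differed by 1.61 (SE 0.37, adjusted p = 0.0788) and H2-D1 by 0.86 (SE 0.21, adjusted p = 0.0928), and DESeq2 called both. B2m differed by -0.63 (SE 0.52, adjusted p = 0.781) and Nlrc5 by -1.50 (SE 1.23, adjusted p = 0.781) in double-floxed minus Foxa2-floxed. In Foxa2-floxed minus Foxa1-floxed, B2m differed by 1.17 (SE 0.52, adjusted p = 1) and Nlrc5 by 4.79 (SE 1.29, adjusted p = 1), so the changes called in Foxa2-floxed lines were not shown to differ from those of the other genotypes.

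The other genes of the pathway were taken from lists. Of 14 further class I loading genes (constitutive proteasome subunits, proteasome activators, chaperones and trimming enzymes), 0 of 14 were called in any of the 5 treatment comparisons, where 0.0118% to 6.35% of all genes were. Of 18 further class II pathway genes (endosomal proteases, promoter factors and costimulators), 13 were tested in double-floxed lines. At an unadjusted p under 0.05, 6 of these 13 passed (4 higher, 2 lower), against 20.3% of all genes. The 1 called was Ctsd, a lysosomal protease, at 438, 436, 363, 296 and 569 CPM in vehicle and 718, 1050, 1242, 1039 and 1643 CPM after 4-OHT (1.43, SE 0.21, adjusted p = 0.0122). Its treated and vehicle libraries did not overlap, which held for 1.63% of all genes in that direction. Of all genes, 3.9% were called in double-floxed lines. Ctsl, another such protease, was called with shNKX2-1 (1.07, SE 0.26, adjusted p = 0.0457), where 6.35% of all genes were.

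Among 19 interferon signalling genes, 17 were tested in each table and 1 was called in 1 comparison, Irf7 in Foxa2-floxed lines (3.35, SE 0.88, adjusted p = 0.0453). In those lines 3.43% of all genes were called. Ifng, the interferon that induces Ciita, was at 0 or 1 count in every library. Of 9 class I like genes, 7 were tested: Azgp1, a class I like secreted protein, rose in double-floxed lines (5.19, adjusted p = 0.021), with shScramble (3.14, adjusted p = 0.00489) and with shNKX2-1 (2.75, adjusted p = 0.00784). Raet1e, a ligand of the NKG2D receptor, rose with shScramble (3.95, adjusted p = 0.0232) and shNKX2-1 (5.31, adjusted p = 0.0141), and Mr1, which presents vitamin metabolites, with shNKX2-1 (2.20, adjusted p = 0.0391). Of all genes, 3.9% were called in double-floxed lines, 4.33% with shScramble and 6.35% with shNKX2-1.

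Class II RNA can come from leukocytes, so their markers stand beside it. Of 16 leukocyte markers 6 were tested in double-floxed lines and 1 was called, Csf1r, the receptor of macrophage growth factor, at 0.105, 0.326, 1.54, 0.0354 and 0.226 CPM in vehicle and 3.48, 10.2, 26.5, 0.492 and 2.82 CPM after 4-OHT (4.49, SE 0.66, adjusted p = 0.0114). Of all genes, 3.9% were called in double-floxed lines. Csf1r was also called in Foxa2-floxed lines (2.37, adjusted p = 0.00756), with Itgam (2.22, adjusted p = 0.0403), where 3.43% of all genes were. All 6 markers tested had positive fitted changes in double-floxed and in Foxa2-floxed lines, with medians of 1.29 and 0.97. Of all genes tested, 52.2% and 48.9% had positive fitted changes. The summed markers were at 7.5 to 25.7 CPM in double-floxed vehicle and 12.8 to 55.2 CPM after 4-OHT. The libraries 1 of line 1027B, which had the most class II RNA of each group, had leukocyte sums of 22.1 CPM in vehicle, near the top of that group, and 12.8 CPM after 4-OHT, the lowest of the treated group. Ptprc, which all leukocytes carry, was at 2.69, 0.87, 0.053, 0.566 and 0.407 CPM in vehicle and 1.03, 1.29, 0.62, 1.65 and 0.633 CPM after 4-OHT. In 4-OHT library 5 the marker sum was 48.6 CPM, of which Csf1r at 2.82 and Ptprc at 0.633 CPM were a small part. Levels of the markers that made up the rest are not reported here. In the hairpin set the sums were 6.78 to 15 CPM in vehicle and 9.25 to 18.5 CPM after 4-OHT. The part of leukocyte RNA in the class II values was not tested.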

How the data were processed

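Bulk RNA of 38 organoid libraries was deposited as 3 tables of raw gene counts, which the authors made with STAR 2.7.6a, featureCounts 1.5.1 and DESeq2 on GRCm38, per the submitters' processing notes. The sources used here do not name strand or multi-mapping settings. The counts were tested with edgeR 4.0.16 (R 4.3.3, limma 3.58.1), using TMM scaling, filterByExpr and quasi-likelihood tests with Benjamini-Hochberg adjustment over all genes, at 0.05. Line was the block except for hairpin libraries, since each line has vehicle and 4-OHT libraries of the same tumour, whose deviations correlated at 0.712 to 0.914. The hairpin fit held 4 group means, and genotypes were compared on counts summed per line. The least mean chi-square per gene between replicates was 11.1, so none was counted as a duplicate. The fitting code was also run on simulated counts with known changes, and the outcome is not reported here. Low-count ratios have 95% exact intervals, and the floor is 3 counts per group.

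The genes and lists were chosen with earlier results of these data known. Named genes are B2m, H2-K1, H2-D1, Tap1, Tap2, Tapbp, the 3 Psmb genes, Nlrc5, H2-Aa, H2-Ab1, H2-Eb1, Cd74, Ciita, other MHC genes called, the 3 largest fitted changes per comparison and up to 3 called genes per other list. H2-DMa, H2-DMb1, H2-Q2, H2-Q10, Ifng, Ptprc and the silent genes were named after their values were seen. Alternatives were RLE scaling, no filter, DESeq2 1.42.0, other blocks, line sums and leaving out libraries or lines. Promoters are from RefSeq, with 37 of 44 genes matched. The 11 H2- pseudogenes were left out, and values of some other listed genes are not reported here.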

Additional observations from a re-analysis of the deposited data

Results flagged for a closer look

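Of 111 groups of 4 to 6 values looked at, 34 had a library standing apart by Dixon's criterion, and each was a high value. The criterion assumes normal values, whereas these were untransformed CPM of related genes in groups that mix lines. Its nominal rate of 1 in 20 is therefore no chance rate here, and the flags only describe where values stood. In double-floxed lines, library 1 of line 1027B stood apart in both treatments. In vehicle it held Cd74 at 604 CPM (2.45 to 76.7 in the other libraries), Ciita at 23.7 (0.163 to 3.47), H2-Aa at 19.5 (0 to 0.226), H2-Ab1 at 15.6 (0 to 0.142), H2-Eb1 at 20.1 (0 to 0.177) and summed class II at 730 (12.1 to 90.3). After 4-OHT it held Cd74 at 1643 CPM (4.12 to 407), Ciita at 110 (0.298 to 12.2), H2-Aa at 201 (0 to 6.44), H2-Ab1 at 196 (0.198 to 9.34), H2-Eb1 at 186 (0 to 8.4) and summed class II at 2496 (13.7 to 471). Library 4 came from the same line and was among the others.

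In Foxa2-floxed lines, library 2 of line 1267B stood apart. In vehicle it held Cd74 at 16.4 CPM (0.395 to 2.89 in the others), H2-Aa at 0.168 (0 in the others), H2-Ab1 at 0.379 (0 to 0.0516) and Psmb9 at 3.53 (0.041 to 0.516). After 4-OHT it held B2m at 650 CPM (56.4 to 134), Nlrc5 at 19.2 (0.306 to 2.81), Psmb8 at 41.3 (0.0964 to 2.35), Psmb9 at 12.8 (0.129 to 1.48), Tap1 at 70.3 (1.41 to 6.22), Tapbp at 285 (62.7 to 84.8) and summed processing genes at 1163 (143 to 256). The class II genes there were Cd74 at 78.4 CPM (1.13 to 13.1), H2-Aa at 1.59 (0 to 0.0322), H2-Ab1 at 2.4 (0 to 0.153) and H2-Eb1 at 1.49 (0 to 0.102).

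The remaining values were scattered over libraries. Nlrc5 was at 1.67 CPM in double-floxed vehicle library 5 of line 1027D (0 to 0.0527 in the others) and Psmb8 at 48.4 CPM in 4-OHT library 3 of line 1292B (2.83 to 15.9). In Foxa1-floxed lines Psmb8 was at 1.29 CPM in 4-OHT library 2 (0.0943 to 0.517) and summed leukocyte markers at 40.2 CPM in 4-OHT library 4 (6.65 to 14.2). Single counts among zeros, which the criterion always flags, made up the other 3. They were H2-Ab1 at 0.0331 CPM in vehicle library 3 and 0.0306 CPM in 4-OHT library 6, and H2-Eb1 at 0.0315 CPM in 4-OHT library 5.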

How the results depend on the processing

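No fitted direction reversed among 10 single-gene results. Without the filter on low counts, calls in class I with processing and in class II were 7 and 7 in double-floxed, 3 and 1 in Foxa1-floxed, 13 and 4 in Foxa2-floxed, 4 and 5 with shScramble, 3 in class I with shNKX2-1, and 1 in class I between hairpins in vehicle (Tap2), and the share of all genes called was 8.01%, 3.52%, 5.61%, 5.48%, 9.8% and 1.84%. DESeq2 gave 1 and 2 in double-floxed, 5 and 1 in Foxa2-floxed, 2 and 5 with shScramble, 2 in class I with shNKX2-1, and 2 for double-floxed minus Foxa1-floxed, with 12.4%, 5.85%, 7.55%, 12.3% and 9.85% of all genes. With no replicate block Foxa2-floxed class I had 0, and fitted alone 0, where 0.0305% and 0.864% of all genes were called. The replicate block of line and library-name number gave 2 and 5 in double-floxed and 7 and 1 in Foxa2-floxed, where 11.7% and 5.22% of all genes were called. Counts summed per line with the replicate block of line gave 1 class II gene in double-floxed, and in Foxa2-floxed no class II gene and 2 in class I, Tap1 and Nlrc5, without B2m. These line sums called 3.45% and 0.397% of all genes. Dropping the replicate block of line moved no other count of calls. Without line 1267B Foxa2-floxed class I had 6, and without line 1526C 0, where 6.3% and 0.0929% of all genes were called. Chosen after seeing the data, leaving out both 1027B libraries of number 17699 gave 1 class II gene in double-floxed, and leaving out both 1267B libraries of number 17992 gave 1 and 1 in Foxa2-floxed. These fits called 3.66% and 4.07% of all genes. Leaving out 1 library at a time gave 0 in each class of double-floxed, 0 to 8 and 0 to 1 in Foxa2-floxed, 0 to 3 and 0 to 6 with shScramble, 0 to 5 and 1 to 4 with shNKX2-1, and 0 to 4 in each class between hairpins after 4-OHT, where the 4 came without shNKX2-1 4-OHT library 1, a fit that called 37.8% of all genes there and 45.6% with shNKX2-1. In the fits with 1 library left out, the share of all genes called ran from 1.45% to 3.8% in double-floxed and from 1.3% to 5.32% in Foxa2-floxed. It ran from 0.904% to 11% with shScramble, from 1.7% to 45.6% with shNKX2-1 and from 0 to 37.8% between hairpins after 4-OHT. All these counts of calls pool both directions. Without the filter, 1 of the 13 class I calls in Foxa2-floxed and 1 of the 3 with shNKX2-1 were lower. Without shNKX2-1 4-OHT library 1, the calls with shNKX2-1 went in both directions, and those between hairpins after 4-OHT were mostly lower. RLE scaling moved no result. The causes were not tested. Groups of 2 libraries from 1 line, 2 Foxa2-floxed lines and class II counts at or near 0 limit what these tables can show.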
